A study of Mus musculus with 6 samples.

Results

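The proteasome subunit genes of mouse pancreas were examined in early acute pancreatitis caused by cerulein. The members were the rows of the count table whose symbol is Psm followed by one of the letters a to g and a number, and 48 of 36333 rows met this rule. They comprised 14 genes of the constitutive 20S core, 17 of the 19S regulator, 3 immunoproteasome genes, 3 chaperones of 19S assembly, 4 chaperones of 20S assembly, 4 activators, 1 inhibitor and 2 tissue-specific core genes. The 3 cerulein samples came from wild-type mice given cerulein 10 times into the peritoneum, in 200 µl at 200 µg/kg/h, with the pancreas taken when the model was complete. The 3 saline samples came from wild-type mice given saline into the peritoneum. Cerulein acts like the hormone cholecystokinin, and in excess it overstimulates the enzyme-secreting acinar cells. The labels state neither age, sex nor strain, and they do not say that each library came from a different mouse. The p-values therefore measure the spread between these samples, which may in part be technical.

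The proteasome is the protease that degrades proteins tagged with ubiquitin. Its 20S core is a barrel of stacked rings, with alpha subunits forming the gate and beta subunits forming the inner chamber, where Psmb5, Psmb6 and Psmb7 carry the constitutive active sites. The 19S regulator caps the barrel: its base holds the ATPases that unfold substrates, and its lid removes ubiquitin. In immune cells and under interferon, Psmb8, Psmb9 and Psmb10 can replace the constitutive catalytic subunits, giving the immunoproteasome that supplies peptides to class I molecules. When proteasome activity is short, the membrane-bound factor NRF1, encoded by Nfe2l1, is known to raise transcription of subunit genes together through antioxidant response elements.

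Promoters of 5 members are shown because they belong to the members with the largest rises (Psmd13 and Psmd8), the largest fall (Psmb10) and a TGACNNNGC motif close to the start in catalytic core genes (Psmb5 and Psmb6). This motif is the core of the antioxidant response element. The sequences are from RefSeq on GRCm38.p6, run 5′ to 3′ on the strand of the gene, and cover 250 bases before and 50 bases after the annotated start. They lie at chr7:140882144-140882443 on the plus strand (Psmd13), chr7:29180624-29180923 on the minus strand (Psmd8), chr8:105938343-105938642 on the minus strand (Psmb10), chr14:54617946-54618245 on the minus strand (Psmb5) and chr11:70525107-70525406 on the plus strand (Psmb6). Capitals mark TGACNNNGC, searched on both strands.
Psmd13: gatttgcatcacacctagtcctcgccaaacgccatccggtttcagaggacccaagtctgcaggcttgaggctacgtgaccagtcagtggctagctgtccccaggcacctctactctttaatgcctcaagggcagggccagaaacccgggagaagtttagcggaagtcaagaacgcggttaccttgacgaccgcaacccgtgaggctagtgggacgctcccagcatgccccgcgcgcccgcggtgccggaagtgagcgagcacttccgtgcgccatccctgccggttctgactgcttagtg
Psmd8: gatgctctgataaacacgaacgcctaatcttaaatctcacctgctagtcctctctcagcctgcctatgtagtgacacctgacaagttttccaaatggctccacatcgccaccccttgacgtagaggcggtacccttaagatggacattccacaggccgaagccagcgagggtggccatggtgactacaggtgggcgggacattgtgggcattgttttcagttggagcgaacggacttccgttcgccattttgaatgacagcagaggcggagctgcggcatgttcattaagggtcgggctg
Psmb10: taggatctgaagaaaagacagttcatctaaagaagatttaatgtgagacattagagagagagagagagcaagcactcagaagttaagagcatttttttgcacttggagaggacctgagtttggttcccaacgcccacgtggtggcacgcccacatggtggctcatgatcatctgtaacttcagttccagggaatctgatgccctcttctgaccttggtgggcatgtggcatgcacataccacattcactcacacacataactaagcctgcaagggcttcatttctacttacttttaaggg
Psmb5: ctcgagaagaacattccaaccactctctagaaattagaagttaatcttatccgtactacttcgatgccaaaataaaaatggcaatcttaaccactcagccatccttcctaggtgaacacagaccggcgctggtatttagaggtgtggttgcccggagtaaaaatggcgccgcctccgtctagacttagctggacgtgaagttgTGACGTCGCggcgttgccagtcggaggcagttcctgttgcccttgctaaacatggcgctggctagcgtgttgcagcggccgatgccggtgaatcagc
Psmb6: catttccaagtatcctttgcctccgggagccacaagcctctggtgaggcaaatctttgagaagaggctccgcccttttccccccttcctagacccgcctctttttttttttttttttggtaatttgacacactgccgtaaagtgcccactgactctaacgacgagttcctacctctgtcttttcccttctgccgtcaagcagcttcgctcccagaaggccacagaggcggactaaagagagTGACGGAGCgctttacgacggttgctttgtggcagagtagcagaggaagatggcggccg

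A promoter was found for 40 of the 48 members, 37 of them with a single entry. None was found for Psmb1, Psmb2, Psmb7 and Psmg2, which were called lower, or for Psmc3 and Psmd7, which were called higher. Psmd3 and Psma8 lacked one too, and the motifs of all these members could not be searched. TGACNNNGC was present in 6 of the 40 promoters (15%), against 14.0% of 27025 genes with a promoter. The 6 were Psmb5, Psmb6 and Psmd9, with the motif on the plus strand beginning 47, 9 and 31 bases before the start, and Psme4, Psmc6 and Psmd12, with it on the minus strand beginning 7, 227 and 247 bases before the start. None of the promoters of Psmd13, Psmd8 and Psmb10 held these letters in this window. The CCAAT motif, also searched on both strands, was present in 14 of the 40 (35.0%), against 41.1% of all genes with a promoter. Both shares lay near those of all promoters, and the motif-bearing members Psmb5, Psmb6, Psmd9, Psmc6 and Psmd12 were not called in either direction, while Psme4 was called lower.

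Levels are given as CPM, counts relative to library size, after scaling between libraries with edgeR's TMM factors, and a gene was called at a Benjamini-Hochberg adjusted p under 0.05 in edgeR's quasi-likelihood test over 12441 genes. Total counts per library lay between 5335117 and 7610775. Digestive enzyme genes took 32.8% ± 2.27 of the counts in cerulein libraries and 57.8% ± 7.97 in saline libraries (SD, n = 3 each), which sets how much of each library is left for other genes. Proteasome members took 0.191% ± 0.005 of all counts in cerulein libraries and 0.086% ± 0.010 in saline libraries (SD, n = 3 each), and the groups did not overlap. Of the counts outside the digestive enzyme genes, the members' share was 0.285% ± 0.017 in cerulein libraries and 0.206% ± 0.015 in saline libraries (SD, n = 3 each), again without overlap (two-sided exact permutation p = 0.1 for each share, the smallest that 3 against 3 allows). Psmd8 had 1916, 2566 and 2151 counts and Psmd13 had 2448, 2841 and 1750 counts in cerulein libraries. In saline libraries they had 362, 348 and 228 counts, and 314, 232 and 196 counts. All members together had 12206, 15028 and 11934 counts in cerulein libraries, against 6976, 5116 and 4163 counts in saline libraries. These 2 genes thus made up a large part of both differences, and a share without them was not tested. In bulk tissue, fewer cells of a type and less RNA per cell cannot be told apart. The 11 acinar markers summed to between 161620 and 200870 CPM in cerulein libraries and between 267534 and 476288 CPM in saline libraries, with all 11 above 0 in every library, and their part in the results below was not tested.

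Of the 48 members, 45 passed the filter on low counts and were tested. After cerulein 12 members rose (26.7%) and 8 fell (17.8%), while 28.7% of all genes tested were called higher and 27.1% lower. The median log2 fold change of the 45 was 0.19, against -0.0009 over all genes. The members as one set stood near the background for rises and below it for falls. In the 19S regulator 8 of 17 genes rose (47.1%) and 1 fell (5.88%), with a median log2 fold change of 0.32. In the 20S core 1 of 14 rose (7.14%) and 4 fell (28.6%, near the share of all genes), with a median of -0.39. These counts were not tested between the classes. The cerulein libraries lay wholly above the saline libraries for 15 members, against 32.4% of all genes, and wholly below them for 10 members, against 30.6% of all genes. By class, 10 of the 17 genes of the 19S regulator lay wholly above and none wholly below, while 2 of the 14 core genes lay wholly above and 6 wholly below.

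**Figure D1:**
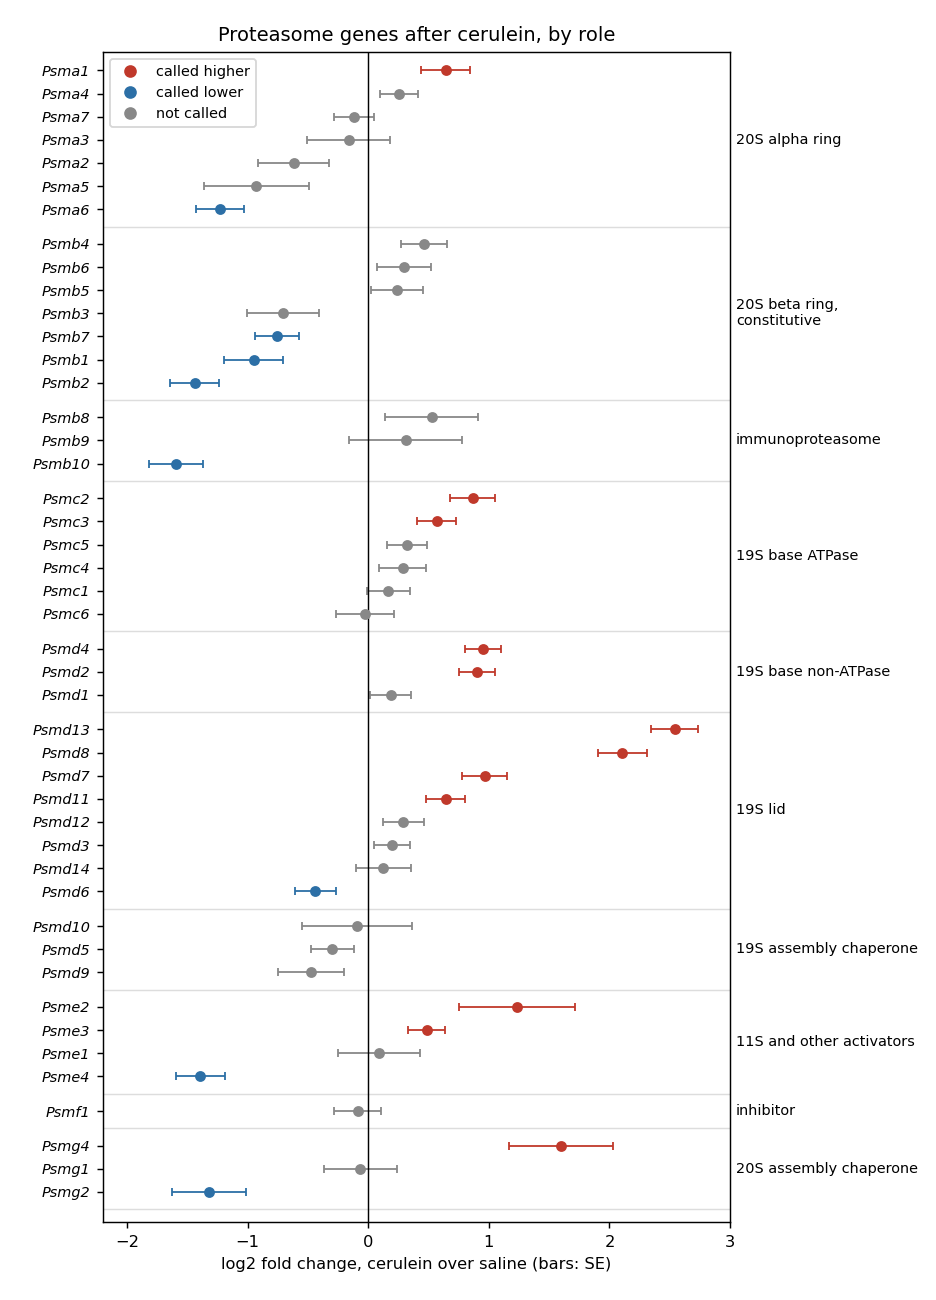
Log2 fold change of cerulein over saline (x axis, bars are SE) for the 45 tested proteasome members, grouped by role and ordered within each role. Red points were called higher, blue points lower and grey points were not called by edgeR. The 19S base and lid lie mostly to the right of 0, up to 2.54 for Psmd13, while the beta ring extends to -1.44 for Psmb2 and Psmb10 stands at -1.59.

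In the alpha ring of the 20S core, Psma1 rose and Psma6 fell. Psma1, also used as a marker of the complex, had 16.3, 19.8 and 14.8 CPM in cerulein libraries 1, 2 and 3, against 9.07, 12.6 and 11.3 CPM in saline libraries 1, 2 and 3. Every cerulein library was above every saline library, and the log2 fold change was 0.64 ± 0.21 (SE; edgeR adjusted p = 0.0179). This call was lost without cerulein replicate 2, without saline replicate 1 or 3 and with upper-quartile scaling. Psma6 had 9.11, 14.5 and 12.9 CPM in cerulein libraries, against 27.1, 31.3 and 27.3 CPM in saline libraries. All 3 cerulein libraries were well below the lowest saline library, and Psma6 fell by 1.23 ± 0.20 on the log2 scale (SE; edgeR adjusted p = 0.000163). The other 5 alpha genes were not called, with log2 fold changes between -0.93 (Psma5) and 0.25 (Psma4).

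In the beta ring no gene rose and 3 of 7 fell, namely Psmb2, Psmb1 and Psmb7. Psmb2, a structural beta subunit, had 6.63, 6.67 and 9.09 CPM in cerulein libraries, against 18.96, 20.3 and 21.6 CPM in saline libraries. All 3 cerulein libraries lay far below the saline libraries, with a log2 fold change of -1.44 ± 0.20 (SE; edgeR adjusted p = 5.3e-05). Psmb1, another structural beta subunit, had no overlap between groups and fell by 0.95 ± 0.25 on the log2 scale (SE; edgeR adjusted p = 0.00558). The other 4 beta genes, Psmb3, Psmb4, Psmb5 and Psmb6, lay between -0.71 and 0.46 and were not called.

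The catalytic subunits of the constitutive core did not move alike. Psmb7, which provides the trypsin-like site, had 14.4, 19.8 and 18.7 CPM in cerulein libraries, against 29.1, 26.8 and 33.7 CPM in saline libraries. Its groups did not overlap, and Psmb7 fell by 0.76 ± 0.18 on the log2 scale (SE; edgeR adjusted p = 0.00306). Psmb5, which provides the chymotrypsin-like site, had 16.0, 25.0 and 19.3 CPM in cerulein libraries, against 13.7, 20.05 and 18.0 CPM in saline libraries, and Psmb6, the caspase-like site, had 17.5, 25.6 and 20.6 CPM in cerulein libraries, against 12.6, 22.1 and 18.0 CPM in saline libraries. For both genes the groups overlapped, with cerulein libraries 1 and 3 inside the saline range. The log2 fold changes were 0.24 ± 0.22 for Psmb5 and 0.29 ± 0.23 for Psmb6 (SE; edgeR adjusted p = 0.371 and 0.287). The level of Psmb5 is uncertain, since 54.1% of its 50-base words also occur in transcripts of other genes, as do 49.1% of the words of Psma5. The share was also above 10% for Psmd2 (17.8%), Psmb3 (17.8%), Psma3 (15.4%), Psmc1 (14.1%) and Psma4 (11.6%), whose levels carry the same limit.

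In the immunoproteasome, Psmb10 fell while Psmb8 and Psmb9 were not called. Psmb10, which takes the place of Psmb7, had 15.6, 15.3 and 11.4 CPM in cerulein libraries, against 29.9, 46.2 and 53.0 CPM in saline libraries. Every cerulein library was below every saline library, and saline library 1 was the lowest of its group. Its log2 fold change of -1.59 ± 0.22 (SE; edgeR adjusted p = 5.54e-05) was the largest fall among the members. Psmb8, the counterpart of Psmb5, had 14.2, 12.3 and 7.45 CPM in cerulein libraries, against 9.89, 3.15 and 10.3 CPM in saline libraries. Psmb9, the counterpart of Psmb6, had 3.31, 3.04 and 3.03 CPM in cerulein libraries, against 3.93, 0.676 and 2.57 CPM in saline libraries. The groups overlapped for both, and saline library 2 was the lowest of the 6 for each. The log2 fold changes were 0.53 ± 0.38 for Psmb8 and 0.31 ± 0.47 for Psmb9 (SE; edgeR adjusted p = 0.27 and 0.596).

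Leukocytes carry immunoproteasome transcripts, and their markers differed between saline libraries. All 11 leukocyte markers were above 0 in all 6 libraries and summed to 566, 472 and 446 CPM in cerulein libraries, against 555, 171 and 347 CPM in saline libraries. Ptprc, the common leukocyte antigen, had 34.6, 21.8 and 26.4 CPM in cerulein libraries, against 40.1, 2.93 and 19.3 CPM in saline libraries. Itgam had 39.3, 33.1 and 31.1 CPM in cerulein libraries, against 36.4, 8.33 and 9.26 CPM in saline libraries. The groups overlapped for both markers. Lyz2 was higher in every cerulein library, at 289, 247 and 225 CPM, against 169, 85.1 and 134 CPM in saline libraries. Saline library 2 was thus the lowest for the leukocyte sum, for Psmb8 and for Psmb9, whereas for Psmb10 it was the second highest of the 6. The part of leukocyte content in the values of Psmb8 and Psmb9 was not tested.

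**Figure D2:**
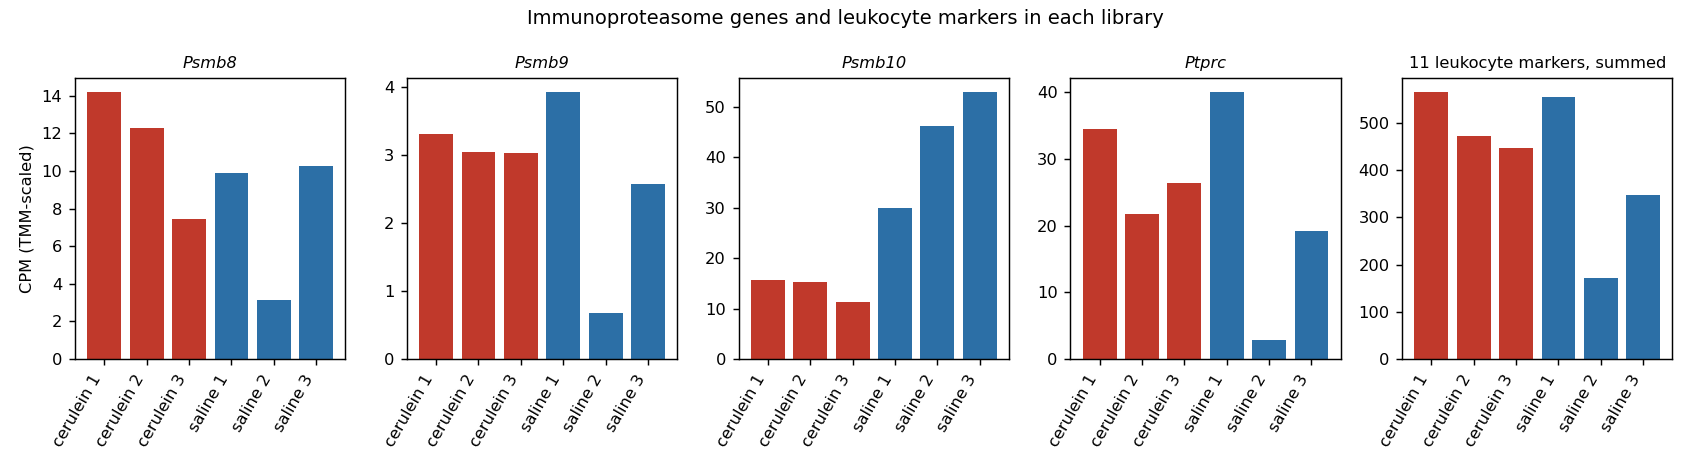
TMM-scaled CPM (y axis, starting at 0) of Psmb8, Psmb9, Psmb10, Ptprc and the summed 11 leukocyte markers in each of the 3 cerulein (red) and 3 saline (blue) libraries. Saline library 2 is the lowest for Psmb8, Psmb9, Ptprc and the marker sum, while Psmb10 is at 11.4 to 15.6 CPM in cerulein libraries and 29.9 to 53.0 CPM in saline libraries.

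The exchange of catalytic subunits was compared as ratios of counts within a library, which do not use the scaling between libraries. The 3 immunoproteasome genes together stood at 0.4998 ± 0.169 of the summed Psmb5, Psmb6 and Psmb7 in cerulein libraries and at 0.820 ± 0.113 in saline libraries (SD, n = 3 each). The groups did not overlap (two-sided exact permutation p = 0.1, Benjamini-Hochberg 0.267 over 8 ratios). Psmb10 held most of the summed immunoproteasome counts in saline libraries. It had 221, 205 and 206 counts there, against 73, 14 and 40 for Psmb8 and 29, 3 and 10 for Psmb9. The fall of the summed ratio therefore describes mainly Psmb10, and a sum without Psmb10 was not tested. Psmb10 over Psmb7 averaged 0.822 ± 0.240 in cerulein libraries and 1.44 ± 0.366 in saline libraries (SD, n = 3 each), and its groups overlapped (exact permutation p = 0.2). Psmb8 over Psmb5 averaged 0.588 ± 0.265 in cerulein libraries and 0.484 ± 0.293 in saline libraries, and Psmb9 over Psmb6 averaged 0.152 ± 0.035 in cerulein libraries and 0.162 ± 0.142 in saline libraries (SD, n = 3 each). Both of these ratios overlapped widely (exact permutation p = 0.7 and 0.8).

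The 19S regulator held most of the rises. In the base, the ATPases Psmc2 and Psmc3 and the non-ATPase subunits Psmd4 and Psmd2 rose. Psmc2 had 36.8, 50.4 and 36.6 CPM in cerulein libraries, against 19.6, 26.1 and 22.6 CPM in saline libraries. The lowest cerulein library stood clear of the highest saline library, and the log2 fold change was 0.86 ± 0.19 (SE; edgeR adjusted p = 0.00146). Psmc3 had 41.7, 52.3 and 41.8 CPM in cerulein libraries, against 27.4, 31.1 and 33.7 CPM in saline libraries, without overlap, for a log2 fold change of 0.57 ± 0.16 (SE; edgeR adjusted p = 0.00976). That call was lost without cerulein replicate 2 and with upper-quartile scaling. The other 4 ATPase genes lay between -0.03 (Psmc6) and 0.32 (Psmc5) and were not called.

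Psmd4 is a ubiquitin receptor of the base. It had 55.3, 66.2 and 56.4 CPM in cerulein libraries, against 30.1, 32.4 and 29.6 CPM in saline libraries. The saline libraries lay close together and far below every cerulein library, with a log2 fold change of 0.95 ± 0.15 (SE; edgeR adjusted p = 0.000135). Psmd2, a scaffold that docks ubiquitin-processing proteins, had 45.4, 52.2 and 50.3 CPM in cerulein libraries, against 25.3, 26.1 and 28.0 CPM in saline libraries, a log2 fold change of 0.90 ± 0.15 without overlap (SE; edgeR adjusted p = 0.000216), with the limit of shared words given above. Psmd1 is the other scaffold of the base and a marker of the complex. It had 22.7, 23.3 and 22.1 CPM in cerulein libraries, against 21.9, 16.7 and 21.1 CPM in saline libraries. Its cerulein libraries were all slightly above its saline libraries, but the log2 fold change of 0.19 ± 0.17 was not called (SE; edgeR adjusted p = 0.379).

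In the lid, Psmd13 and Psmd8, both non-catalytic subunits, rose more than any other member. Psmd13 (chr7:140882394-140898642, plus strand) had 289.7, 332 and 221 CPM in cerulein libraries, against 42.5, 52.3 and 50.4 CPM in saline libraries. Psmd8 (chr7:29174187-29180673, minus strand) had 227, 300.2 and 272 CPM in cerulein libraries, against 49.0, 78.4 and 58.6 CPM in saline libraries. For both genes the lowest cerulein library was more than double the highest saline library. The log2 fold change of Psmd13 was 2.54 ± 0.20 (SE; edgeR adjusted p = 3.05e-07), a 5.82-fold difference. That of Psmd8 was 2.11 ± 0.20 (SE; edgeR adjusted p = 2.15e-06), a 4.30-fold difference. These genes overlap no other coding or lncRNA gene of the annotation, and 0.35% of the 50-base words of Psmd13 and none of those of Psmd8 occur in transcripts of other genes.

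Among the rest of the lid, described after their values were seen, Psmd7 and Psmd11 rose and Psmd6 fell. Psmd7, the partner of the deubiquitinase Psmd14, had 56.6, 80.3 and 78.9 CPM in cerulein libraries, against 34.4, 44.4 and 31.9 CPM in saline libraries, without overlap and with a log2 fold change of 0.96 ± 0.18 (SE; edgeR adjusted p = 0.000588). Psmd11 had a log2 fold change of 0.64 ± 0.16 (SE; edgeR adjusted p = 0.00418), also without overlap. Psmd6 had 54.2, 64.1 and 61.6 CPM in cerulein libraries, against 63.2, 91.9 and 90.0 CPM in saline libraries. Its cerulein library 2 lay above saline library 1, and its log2 fold change of -0.44 ± 0.17 (SE; edgeR adjusted p = 0.0413) was called in the main test and not in 9 of 15 alternatives, among them without each cerulein replicate and without saline replicate 2 or 3. Its sign turned to 0.16 with library size alone. Psmd14, Psmd3 and Psmd12 were not called, with log2 fold changes of 0.13, 0.20 and 0.29.

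**Figure D3:**
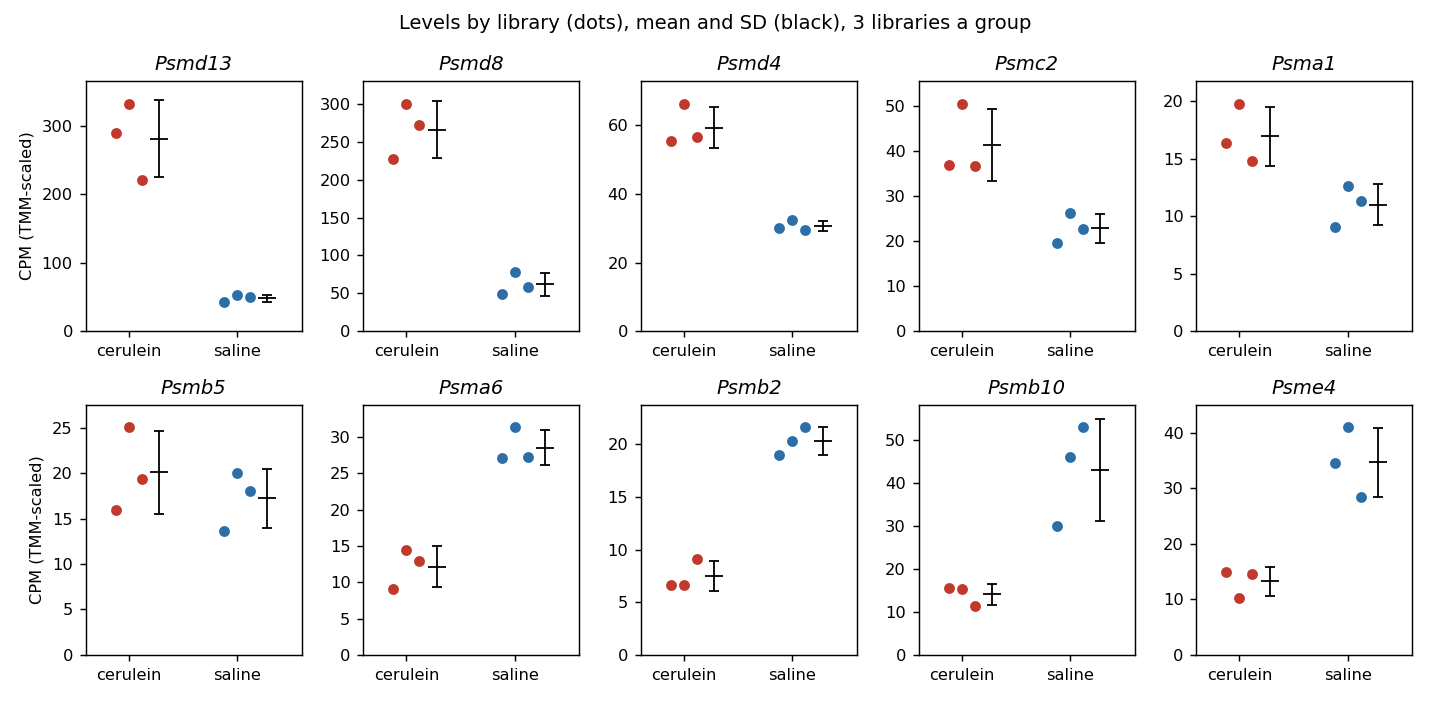
TMM-scaled CPM (y axes, starting at 0 and differing between panels) of 10 members in each of the 3 cerulein libraries (red, left) and 3 saline libraries (blue, right), with mean and SD in black. Psmd13 and Psmd8 stand at 221 to 332 CPM in cerulein libraries and 42.5 to 78.4 CPM in saline libraries, Psmb5 overlaps between the groups, and Psma6, Psmb2, Psmb10 and Psme4 lie lower in every cerulein library.

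Summed over the 17 genes, the 19S regulator stood at 1146 ± 136 CPM in cerulein libraries and 564 ± 57.4 CPM in saline libraries (SD, n = 3 each), without overlap. Within these sums Psmd13 and Psmd8 averaged 281 and 266 CPM in cerulein libraries, against 48.4 and 62.0 CPM in saline libraries. The difference of the sums therefore rests in large part on these 2 genes. Summed over the 14 genes, the 20S core stood at 223 ± 28.5 CPM in cerulein libraries and 261 ± 24.5 CPM in saline libraries (SD, n = 3 each), with cerulein library 2 inside the saline range. The direction of the core depended on the scaling: with library size alone its summed level differed by 0.36 on the log2 scale, against -0.23 with TMM factors. The exact permutation p was 0.1 for the regulator and 0.2 for the core (Benjamini-Hochberg 0.222 for both over 10 sums).

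The count ratio of the 19S regulator to the 20S core, taken within each library and so free of that scaling, was 5.35, 5.14 and 4.95 in cerulein libraries, against 2.18, 2.25 and 2.06 in saline libraries. The libraries of each group lay close together and the groups far apart, with a log2 difference of 1.25 (exact permutation p = 0.1, Benjamini-Hochberg 0.267 over 8 ratios). Psmd13 and Psmd8 made up a large share of it. Without both genes, an alternative added after seeing the data, the ratio averaged 2.69 ± 0.041 in cerulein libraries and 1.74 ± 0.071 in saline libraries (SD, n = 3 each), a log2 difference of 0.63 with the groups still apart (exact permutation p = 0.1). Alpha over beta genes averaged 0.771 ± 0.068 in cerulein libraries and 0.730 ± 0.065 in saline libraries (SD, n = 3 each) and overlapped.

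Within the lid the same comparison set Psmd13 and Psmd8 beside the other lid genes of their own library. The ratio of Psmd8 to the 6 others averaged 0.892 ± 0.018 in cerulein libraries and 0.244 ± 0.028 in saline libraries (SD, n = 3 each). That of Psmd13 averaged 0.950 ± 0.1997 in cerulein libraries and 0.193 ± 0.009 in saline libraries (SD, n = 3 each). Psmd13 over Psmd8 averaged 1.07 ± 0.235 in cerulein libraries and 0.798 ± 0.114 in saline libraries (SD, n = 3 each), with overlapping groups. These 3 ratios were chosen after the values were seen.

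**Figure D4:**
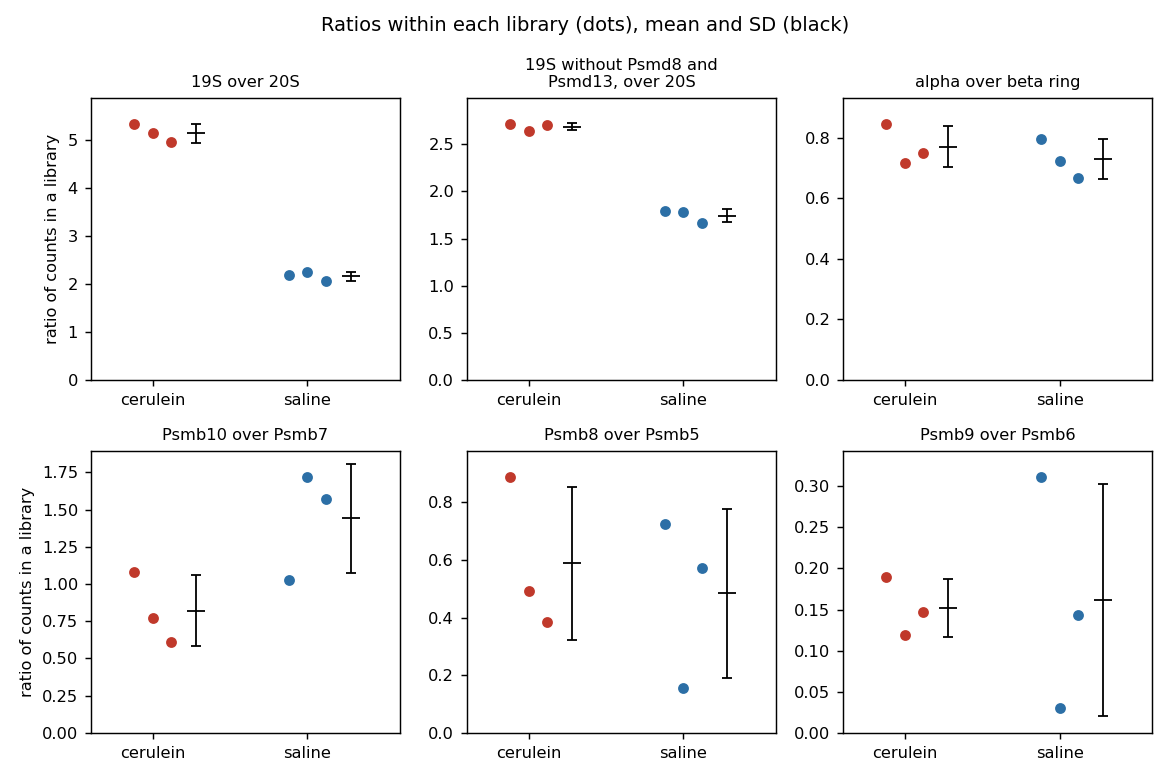
Ratios of counts within a library (y axes, starting at 0) for the 3 cerulein libraries (red, left) and 3 saline libraries (blue, right), with mean and SD in black. 19S over 20S lies at 4.95 to 5.35 in cerulein libraries and 2.06 to 2.25 in saline libraries and remains apart without Psmd8 and Psmd13, while alpha over beta, Psmb10 over Psmb7, Psmb8 over Psmb5 and Psmb9 over Psmb6 overlap.

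Subunits of one complex are needed in equal number, so the evenness of their transcripts was measured as the SD, over the genes of a complex, of log2 CPM per kb of exon. For the 19S regulator this SD was 1.37 ± 0.003 in cerulein libraries and 0.978 ± 0.105 in saline libraries (SD over libraries, n = 3 each), without overlap (exact permutation p = 0.1). Without Psmd8 and Psmd13, which were left out after their rises had been seen, it was 1.01 ± 0.034 in cerulein libraries and 0.973 ± 0.095 in saline libraries. Leaving out the largest rises narrows the spread by construction, so these values are a description without a test. For the 20S core it was 1.499 ± 0.163 in cerulein libraries and 1.35 ± 0.135 in saline libraries (SD over libraries, n = 3 each), with overlap (exact permutation p = 0.3). Per kb of exon, Psmd8 and Psmd13 were the most abundant 19S transcripts after cerulein, at 87.1 and 83.2 CPM per kb, against 20.3 and 14.3 CPM per kb in saline libraries. The next was Psmd7 at 31.8 CPM per kb in cerulein libraries, against 16.3 in saline libraries. In saline libraries the highest was Psmd6, at 21.4 CPM per kb in cerulein libraries and 29.2 in saline libraries.

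**Figure D5:**
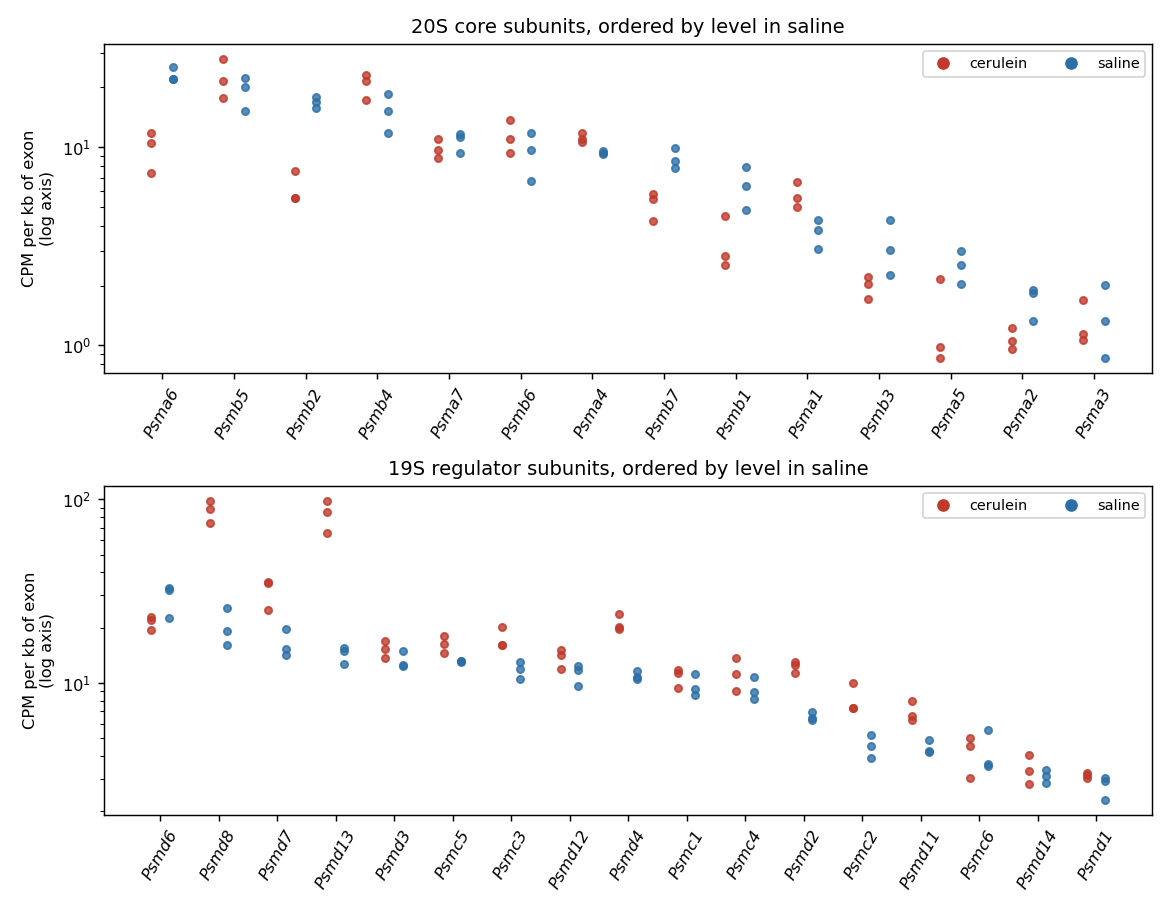
CPM per kb of exon (log axis) of the 14 core genes (upper panel) and 17 genes of the 19S regulator (lower panel), ordered by their level in saline, with the 3 cerulein libraries in red to the left of the 3 saline libraries in blue. Psmd8 and Psmd13 leave the range of the other 19S genes in cerulein libraries, and the core genes with the largest falls, Psmb2 and Psma6, are among the highest in saline.

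Assembly chaperones guide the building of the complex and do not stay in it. The 3 chaperones of the 19S base, Psmd5, Psmd9 and Psmd10, were not called. Psmd5 had 13.5, 16.3 and 14.4 CPM in cerulein libraries, against 17.3, 20.05 and 17.0 CPM in saline libraries, which was lower in every cerulein library but not past the threshold (log2 fold change -0.30 ± 0.18, SE; edgeR adjusted p = 0.174). Psmd9 had 4.62, 6.90 and 5.68 CPM in cerulein libraries, against 7.31, 6.76 and 10.0 CPM in saline libraries, with overlap (log2 fold change -0.47 ± 0.27, SE; edgeR adjusted p = 0.159). Psmd10 stood at -0.10 ± 0.46 on the log2 scale. None of the 3 shared a call with the regulator they help to build.

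The chaperones of the 20S core moved in opposite directions at low counts. Psmg4 had 3.08, 3.16 and 2.65 CPM in cerulein libraries, against 0.813, 0.901 and 1.29 CPM in saline libraries, without overlap, and its log2 fold change was 1.597 ± 0.43 (SE; edgeR adjusted p = 0.00649). Its counts were 26, 27 and 21 in cerulein libraries, against 6, 4 and 5 in saline libraries. Psmg2, which acts as a pair with Psmg1, had 3.67, 4.56 and 3.79 CPM in cerulein libraries, against 7.99, 14.9 and 7.46 CPM in saline libraries. The groups did not overlap and saline library 2 was the highest, with a log2 fold change of -1.32 ± 0.31 (SE; edgeR adjusted p = 0.00264). Psmg1 was not called (-0.07 ± 0.31 on the log2 scale). Psmg3 was listed at 0 in all 6 libraries. If its reads were assigned to it, counting error alone allows up to a floor of 3 counts. That floor was 0.351 to 0.379 CPM in cerulein libraries and 0.406 to 0.771 CPM in saline libraries. Of the words of Psmg3, 7.89% also occur in transcripts of another gene. Whether its reads were assigned was not tested, so the 0 does not show that Psmg3 was absent.

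The activators replace or join the 19S regulator at the ends of the barrel. Psme4, which caps the core without using ubiquitin and is known from the testis and from DNA repair, fell: it had 15.03, 10.2 and 14.5 CPM in cerulein libraries, against 34.7, 41.0 and 28.5 CPM in saline libraries. No cerulein library came near the lowest saline library, and the log2 fold change was -1.39 ± 0.20 (SE; edgeR adjusted p = 7.02e-05). Psme4 partly overlaps Erlec1 in the annotation, and reads shared between them may not be separable. Psma3, Psma4, Psmd1, Psmd10, Psme1 and Psmf1 also overlap another coding or lncRNA gene and carry the same limit. Psme3, the nuclear activator, had 89.5, 95.4 and 106 CPM in cerulein libraries, against 64.2, 81.3 and 63.0 CPM in saline libraries, without overlap. Its log2 fold change was 0.48 ± 0.16 (SE; edgeR adjusted p = 0.0186), and the call was lost without cerulein replicate 3, without saline replicate 3 and with upper-quartile scaling.

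Psme1 and Psme2 form the interferon-inducible activator. Psme2 rested on 14, 16 and 15 counts in cerulein libraries, against 6, 4 and 2 counts in saline libraries, and its call (log2 fold change 1.23 ± 0.48, SE; edgeR adjusted p = 0.0439) was lost in 12 of 15 alternatives, including without each of the 6 libraries. Its 50-base words are shared for 28.3% with other transcripts, and its copy Psme2b, outside the name rule, had 19.1 ± 3.61 CPM in cerulein libraries and 12.1 ± 2.42 CPM in saline libraries (SD, n = 3 each). Psme2 and Psme2b summed stood at 21.0 ± 3.49 CPM in cerulein libraries and 12.8 ± 2.35 CPM in saline libraries (SD, n = 3 each), a log2 difference of 0.71 without overlap. Psme1 was not called (0.09 ± 0.34 on the log2 scale). The inhibitor Psmf1 had 19.5, 19.3 and 20.5 CPM in cerulein libraries, against 15.7, 24.8 and 23.1 CPM in saline libraries, overlapped and was not called (-0.09 ± 0.19 on the log2 scale, SE; edgeR adjusted p = 0.733).

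The tissue-specific core genes were at or near 0. Psma8, the alpha subunit of the testis proteasome, had 5 counts over the 6 libraries. Psmb11, the beta subunit of the thymus proteasome, had none, and the floor given for Psmg3 applies to it as well. These genes and Psmg3 were the 3 members not tested.

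Genes of the same pathway outside the name rule were taken from lists by role. Of 16 proteasome partners 5 rose and 5 fell (31.2% each, near the 28.7% and 27.1% of all genes), with a median log2 fold change of 0.08. The largest rise was that of Zfand2a, a stress-induced protein that binds the proteasome, with 50.8 ± 7.03 CPM in cerulein libraries and 8.54 ± 0.796 CPM in saline libraries (SD, n = 3 each). Its log2 fold change was 2.56 ± 0.19 (SE; edgeR adjusted p = 1.66e-07). Akirin2, which carries proteasomes into the nucleus, rose by 1.47 ± 0.18 and Zfand5, a proteasome-binding ubiquitin receptor, by 1.19 ± 0.16 on the log2 scale (SE). Adrm1, a ubiquitin receptor of the 19S regulator, rose by 0.77 ± 0.25, and its call was lost without cerulein replicate 2 or saline replicate 3 and with upper-quartile scaling. Shfm1, the small lid subunit now named Sem1, had a log2 fold change of -0.56 ± 0.22 (SE; edgeR adjusted p = 0.0426), a call that was lost in 6 of 15 alternatives, among them without cerulein replicate 1 or 3 and without saline replicate 2 or 3. The falls with the smallest p were those of Uchl5 (-0.93 ± 0.23, edgeR adjusted p = 0.00362) and Txnl1 (-0.79 ± 0.19, edgeR adjusted p = 0.00364). Both were without overlap, and Ube3c and AI314180 also fell. Pomp, the maturation factor of the core, was not called (-0.01 ± 0.24).

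Of 9 genes of the NRF1 route 6 rose (66.7%, against 28.7% of all genes) and 1 fell (11.1%, against 27.1%), with a median log2 fold change of 1.06. Among the rises were the small Maf genes, whose proteins pair with NRF1 and NRF2 on DNA. Maff stood at 85.3 ± 10.4 CPM in cerulein libraries and 10.5 ± 1.47 CPM in saline libraries (SD, n = 3 each), a log2 fold change of 3.03 ± 0.18 (SE; edgeR adjusted p = 3.35e-08). Mafg rose by 1.85 ± 0.18 and Mafk by 1.53 ± 0.15. Nfe2l2, which encodes NRF2, rose by 1.69 ± 0.19, and Nfe2l1, which encodes NRF1, had 179.6 ± 22.9 CPM in cerulein libraries and 123 ± 2.71 CPM in saline libraries (SD, n = 3 each), a log2 fold change of 0.55 ± 0.16 (SE; edgeR adjusted p = 0.00973). The Nfe2l1 call was lost without cerulein replicate 3 and with upper-quartile scaling. The remaining rise was that of Keap1, by 1.06 ± 0.17. Ngly1 (-0.39 ± 0.17) and Syvn1 (0.20 ± 0.17) were not called. The count of rises takes in Nfe2l2, Keap1 and the small Maf genes, which are not particular to NRF1, and Nfe2l1 was the only other rise. The fall was that of Ddi2, the protease that releases NRF1, which had 9.11, 5.73 and 11.2 CPM in cerulein libraries, against 30.2, 16.7 and 10.8 CPM in saline libraries. The groups overlapped, saline library 1 was the highest, and the log2 fold change was -1.18 ± 0.37 (SE; edgeR adjusted p = 0.0231). Without saline replicate 1 it was -0.71, and the call was lost in 3 of 15 alternatives, namely without cerulein replicate 1 or 2 and with library size alone.

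Of 7 genes of p97 and its cofactors, which draw ubiquitin-tagged proteins out of membranes and complexes, 3 rose (42.9%, against 28.7% of all genes) and 2 fell (28.6%, near the 27.1% of all genes). All 3 rises were of cofactors. Vcp, the gene of p97 itself, was not called (log2 fold change 0.36 ± 0.15, SE; edgeR adjusted p = 0.0527). Nploc4 rose by 1.14 ± 0.17 and Nsfl1c by 0.82 ± 0.17 on the log2 scale (SE), whereas Ufd1l, whose protein works as a pair with that of Nploc4, had a log2 fold change of -0.58 ± 0.18. The Ufd1l call was lost in 5 of 15 alternatives, among them without cerulein replicate 2 or 3 and without saline replicate 1. The E1 enzymes Uba1 and Uba6, which activate ubiquitin, rose by 0.82 ± 0.15 and 0.91 ± 0.29 on the log2 scale (SE), the Uba6 call being lost without cerulein replicate 3 or saline replicate 3.

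Class I peptide loading and the interferon response, the usual company of the immunoproteasome, gave 4 rises (44.4%, against 28.7% of all genes) and no fall (against 27.1%) among 9 genes tested of 12. Irf9, a subunit of an interferon-activated transcription complex, rose by 1.29 ± 0.18 on the log2 scale (SE; edgeR adjusted p = 5.6e-05). Irf1, known to drive immunoproteasome genes, rose by 0.60 ± 0.18, and Tapbp, which loads peptides on class I molecules, by 0.47 ± 0.15. The Irf1 call was lost without cerulein replicate 3, that of Tapbp without cerulein replicate 1, and both with upper-quartile scaling. B2m and Ifit1 were at 0 in all 6 libraries and lie inside the span of another gene, so that their 0 was taken as no measurement. Isg15, with 1, 0 and 0 counts in cerulein libraries and 2, 0 and 0 counts in saline libraries, was not tested either. The leukocyte values given above for the immunoproteasome genes apply to this list too, and their part in it was not tested.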

How the data were processed

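RNA-seq libraries of mouse pancreas, 3 after cerulein and 3 after saline, were analysed. The authors deposited whole-number read counts per gene, in a table of 36333 rows. Trimmomatic, STAR, HTSeq and mm10 are named per the submitters' processing notes, without versions; the strand setting and annotation release were not given in the sources used here. TRIzol extraction and a stranded mRNA kit were used, per the labels' protocols. Counts were tested in edgeR 4.0.16 (R 4.3.3): filterByExpr (minimum count 10, minimum total 15), TMM factors, robust quasi-likelihood F test, two-sided, Benjamini-Hochberg over 12441 genes. SE is the log2 fold change over the square root of F. Sums and ratios of single libraries were compared by two-sided exact permutation, whose smallest p is 0.1. Members and lists were chosen with earlier results of these data known. Values per library are given for the catalytic subunits, Psma1, Psmd1 and the members with the smallest p of each role; of each pathway list the genes with the smallest p are named, and others were chosen after their values were seen. One result that the rule takes is not reported here. Shared words were counted in GENCODE transcripts. Scripts were tested on simulated data. Limits for counts of 0 cover counting error only. Alternatives used DESeq2 1.42.0, limma 3.58.1, other scalings and filters, the replicate number as a block, and each replicate left out.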

Additional observations from a re-analysis of the deposited data

How the results depend on the processing

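Of the 20 called members, 12 kept their call in all 15 alternatives (Psma6, Psmb2, Psmb10, Psmc2, Psmd2, Psmd4, Psmd7, Psmd8, Psmd11, Psmd13, Psme4 and Psmg4). Scaling mattered most: with library size alone the median of all genes shifted by 0.563 on the log2 scale, with upper-quartile factors by -0.197 and with library size without the digestive enzyme genes by -0.101. With library size alone 23 members were called higher and 4 lower, 5 core genes higher and 2 lower, and 14 genes of the 19S regulator higher and 0 lower; the median log2 fold change was 0.17 for the core, a reversed sign, and 0.88 for the regulator; the summed CPM differed by 0.36 (core), -0.31 (immunoproteasome) and 1.61 (regulator), Psmf1 stood at 0.52 and Shfm1 at 0.027, both reversed, and Psmd6 at 0.16. The calls of Psmb1, Psmb7 and Psmg2 were lost with library size alone only. With upper-quartile factors 0 core genes were called higher and 7 lower, the median of the regulator was 0.12, and the summed CPM differed by -0.43 (core) and 0.82 (regulator). The core genes called higher numbered 2 under the CPM filter (above 1 in 3 libraries), with no filter, with limma-voom and with the replicate block, and 0 to 2 when a replicate was left out. The regulator genes called lower numbered 0 with that CPM filter, with no filter and with DESeq2, and 0 to 1 when a replicate was left out. Without Psmb8 in the sum, the immunoproteasome ratio differed by -1.24, and without Psmd8 and Psmd13 the 19S to 20S ratio by 0.63. The cause of these shifts was not tested. Deviations from the group means had correlations of 0.19, 0.216 and -0.15 between same-numbered libraries. Between differently numbered libraries they lay from -0.293 to 0.088, and libraries with number 3 did not correlate best with each other. With 3 libraries a group these values cannot decide whether the numbers pair the samples, and no pairing is stated. Psme2, Psmg4, Psmb9 and Psma5 rest on few counts, which limits their precision.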
